A study of Homo sapiens with 6 samples.

Results

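The 33 genes described here encode proteins of homologous recombination, the Fanconi anaemia pathway, mismatch repair and the DNA damage checkpoint, and were listed by name, with earlier results of these data known. Of the 33, 27 had a probe set that names only that gene, out of 19775 genes measured in the series. PMS2 and ATRIP lay only on probe sets that also name PMS2CL or TREX1, and were given no value of their own. BRCA2, RBBP8, FANCA and FANCD2 were not analysed here. Every listed gene with such a probe set was kept, since no filter on low values was set. The cells were DLD1, an established colorectal adenocarcinoma line that is known to lack mismatch repair through mutation of MSH6. They had 12 h with 10 µM SAH-BCL9B, a stapled peptide made after the helix of BCL9 that binds beta-catenin, or 12 h with the vehicle DMSO. Each group had 3 Affymetrix U133 Plus 2.0 arrays from triplicate cultures of this 1 line, and the labels name no control peptide. Whether the cultures were set up independently is not stated, so p-values measure the spread between these samples, which may be technical.

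In homologous recombination, a broken DNA end is cut back to single strand, BRCA1 and BRCA2 help to prepare it for strand exchange, and the sequence is copied from the sister chromatid. The Fanconi pathway detects DNA strands that are linked to each other, marks the FANCD2 and FANCI pair with ubiquitin and hands the lesion to recombination. Mismatch repair removes replication errors, and the kinases ATM, ATR, CHEK1 and CHEK2 hold the cell cycle while repair proceeds. Many of these genes are transcribed mainly in S and G2 phase, and intestinal crypt cells and colorectal cancer lines that divide quickly express them.

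All values are log2 expression levels from RMA, which brings the arrays to 1 distribution and joins the probes of a set into a value. Since each probe set binds with its own strength, levels of different probe sets do not rank amounts of RNA, and a level is set beside the array medians only to say how bright the signal was. The arrays' medians lay between 6.58 and 6.62. SAH-BCL9B 2 and vehicle 3 stood apart from the other 4 arrays, with SDs of 2.42 and 2.43 over all probe sets against 2.47 to 2.49. SAH-BCL9B 2 also had the lowest difference between the 3' and 5' ends of the ACTB control, 0.735 on the log2 scale, against 1.20 to 1.38 on the other 5 arrays. Of 10 intestinal epithelial marker genes 2 fell and 1 rose. VIL1, the villin gene, had a change of -0.86, CDH17, a cadherin gene, -0.55 and KRT8, a keratin gene, 0.50 on the log2 scale (limma adjusted p = 0.00303, 0.00806 and 0.0113), and their part in the members' change was not tested. EPCAM and CDH1, epithelial genes that did not pass, had means of 14.59 and 13.93 in SAH-BCL9B arrays, against 14.44 and 13.87 in vehicle arrays. The leukocyte gene PTPRC stood at 4.35 and 4.28 and the endothelial gene CDH5 at 4.22 and 4.19, far below the array medians. The fibroblast gene COL1A1 stood above the array medians, at 8.67 and 8.55. Of all 16 measured fibroblast, endothelial and leukocyte markers, 0 passed limma's test (0 also at an unadjusted p under 0.05).

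After SAH-BCL9B, 5 of the 27 measured genes fell, 0 rose and 22 did not pass the test (limma, Benjamini-Hochberg adjusted p under 0.05 over all 19775 genes). BRIP1, FANCI, RAD54B, FANCF and BRCA1 were the members that fell, by 1.31-fold to 1.52-fold. Over all genes, 6.93% were called, 3.43% lower and 3.49% higher. At an unadjusted p under 0.05, 11 members were lower and 0 were higher, where 9.22% of all genes were lower and 12.2% higher. The change was negative in 24 of the 27 members and positive in FANCB, MSH6 and ATM, where 8882 of all 19775 genes had a negative change. The members' median was -0.19, against 0.02 over all genes tested. In 13 members the 3 SAH-BCL9B arrays all lay below the 3 vehicle arrays, and in 1 they all lay above, where 12.0% and 16.3% of all genes did so (28.3% in either direction).

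**Figure D1:**
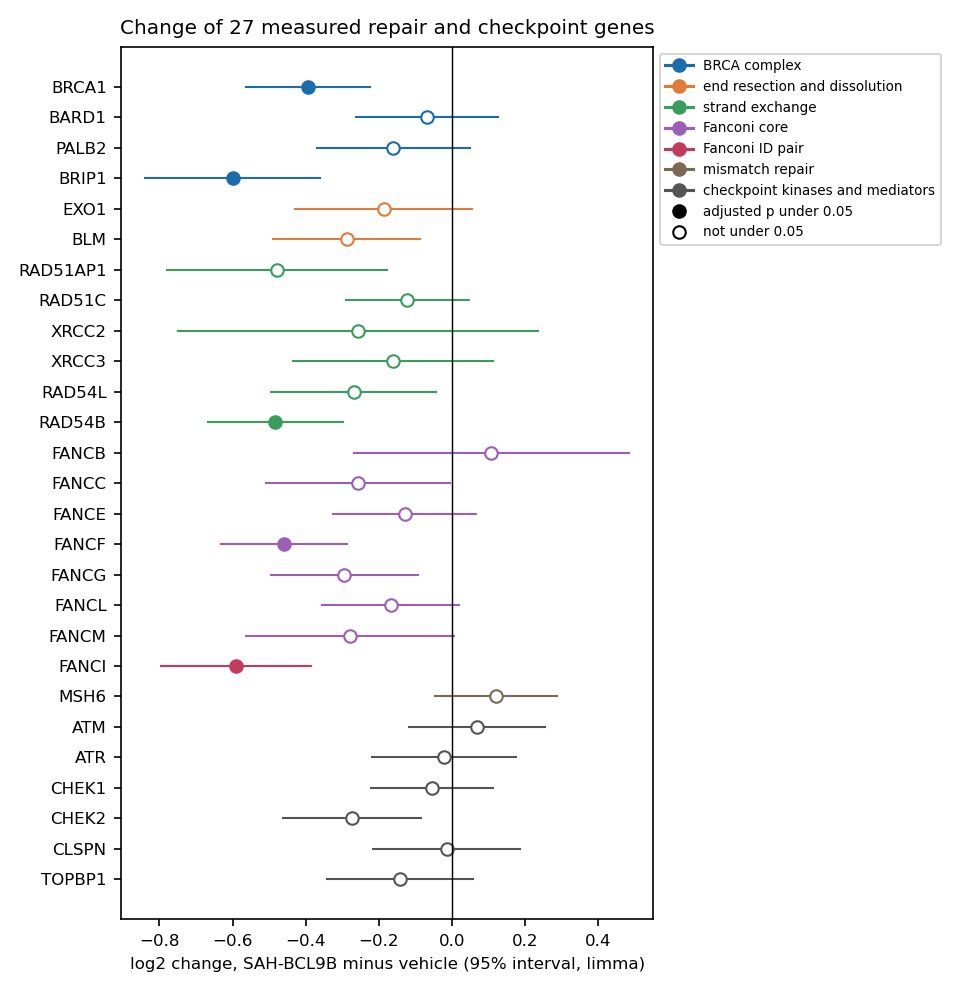
The log2 change (SAH-BCL9B minus vehicle) of each of the 27 measured genes is plotted with its 95% interval from limma, in the order and colour of its role, with filled points for an adjusted p under 0.05. The 5 filled points lie between -0.60 and -0.39, and 3 genes lie right of 0.

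The number of genes called depended on which arrays were fitted, over the members and over all genes. Of the members, the number that fell was 2 without SAH-BCL9B 1 or SAH-BCL9B 3, 6 without SAH-BCL9B 2, 1 without vehicle 1 or vehicle 2, and 4 without vehicle 3. The number of all genes called was 1370 with all arrays, 514 without SAH-BCL9B 1, 1426 without SAH-BCL9B 2, 522 without SAH-BCL9B 3, and 316, 518 and 692 without vehicle 1, 2 or 3. With SAH-BCL9B 2 and vehicle 3 both left out, 5 members and 1194 of all genes were called, and RAD51AP1 passed and BRCA1 did not. FANCI passed in each of these fits, and 23 to 25 of the 27 changes were negative.

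The BRCA1 complex held 2 of the 5 lowered members. BRCA1, a ubiquitin ligase and scaffold that starts recombination, had levels of 10.26, 10.18 and 10.28 in SAH-BCL9B arrays, against 10.60, 10.68 and 10.63 in vehicle arrays. The 2 groups did not overlap, and replicates lay close together in both. The change was -0.39 ± 0.07 (SE; 1.31-fold lower, limma adjusted p = 0.0197). The other BRCA1 probe set, with means of 7.97 in SAH-BCL9B and 8.32 in vehicle arrays, gave -0.36 ± 0.09 and did not pass when every probe set was tested by itself (limma adjusted p = 0.0805). BRCA1 missed the threshold without SAH-BCL9B 1, SAH-BCL9B 3, vehicle 1, vehicle 2 or vehicle 3 (adjusted p = 0.0554 to 0.0869), with changes of -0.41 to -0.37.

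BRIP1, a helicase that binds the C-terminal repeats of BRCA1 and is also a Fanconi gene, had 8.73, 8.58 and 8.86 in SAH-BCL9B arrays, against 9.33, 9.45 and 9.20 in vehicle arrays. Its arrays were more spread than those of BRCA1, and the highest SAH-BCL9B array stayed below the lowest vehicle array. The change was -0.60 ± 0.10 (1.52-fold lower, limma adjusted p = 0.0152). Its other probe set gave -0.39 ± 0.18, and the mean of both gave -0.49 and missed the threshold (limma adjusted p = 0.0767). BRIP1 also missed it without SAH-BCL9B 1, vehicle 1 or vehicle 2 (adjusted p = 0.0591, 0.0713 and 0.061).

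BARD1, the partner that BRCA1 needs as a ubiquitin ligase, had 10.42, 10.57 and 10.35 in SAH-BCL9B arrays, against 10.47, 10.54 and 10.53 in vehicle arrays. These overlapped, and the change was -0.07 (95% interval -0.26 to 0.13, limma adjusted p = 0.741). PALB2, which bridges BRCA1 and BRCA2, had a value of -0.16 (interval -0.37 to 0.05, adjusted p = 0.372), with overlapping groups. A difference between the changes of BRCA1 and BARD1 was not tested.

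**Figure D2:**
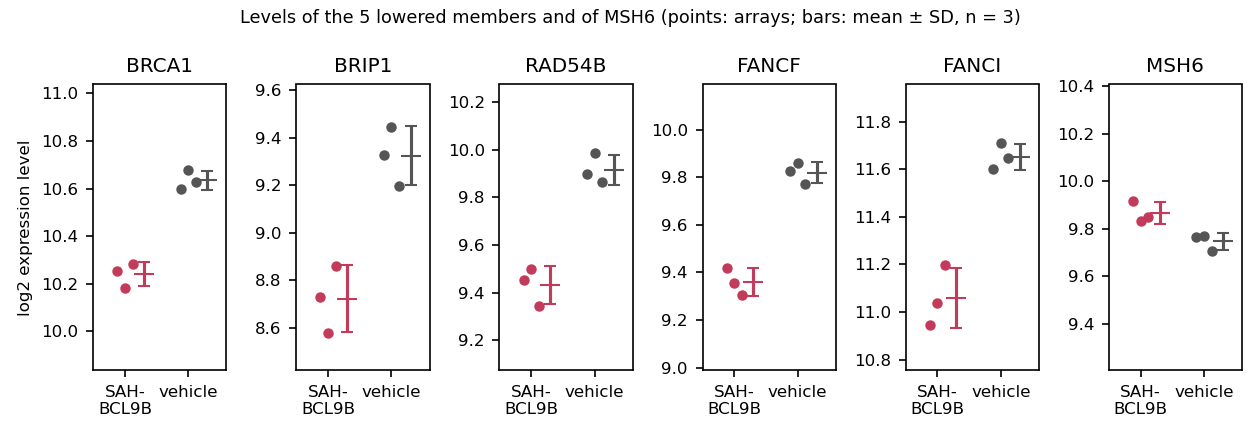
Points are the log2 levels of BRCA1, BRIP1, RAD54B, FANCF, FANCI and MSH6 on each array, with the mean and SD of 3 SAH-BCL9B and 3 vehicle arrays beside them; each panel spans the same log2 range, which does not start at 0. In the 5 lowered genes the SAH-BCL9B points lie below all vehicle points, and in MSH6 they lie above by 0.12 on average.

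Genes of strand exchange held 1 lowered member of 6. RAD54B, a chromatin-remodelling motor that assists strand exchange, had 9.45, 9.50 and 9.35 in SAH-BCL9B arrays, against 9.90, 9.99 and 9.86 in vehicle arrays. The groups did not overlap. The change was -0.48 ± 0.08 (SE; 1.40-fold lower, limma adjusted p = 0.0136), and RAD54B missed the threshold without SAH-BCL9B 1, SAH-BCL9B 3, vehicle 1 or vehicle 2 (adjusted p = 0.0517 to 0.0669). A further 2 probe sets name both RAD54B and FSBP, and changed by -0.73 ± 0.12 and -1.15 ± 0.10 in a limma fit over every probe set that is not an array control (adjusted p = 0.0252 and 0.00453). Which of the 2 transcripts they read cannot be told apart.

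RAD51AP1, which stimulates the pairing of DNA strands, had a change of similar size and a wider spread. Its levels were 11.04, 10.59 and 10.95 in SAH-BCL9B arrays, against 11.35, 11.45 and 11.21 in vehicle arrays, with SAH-BCL9B 2 the lowest. The value was -0.48 ± 0.13 and did not pass (limma adjusted p = 0.0708), though the groups did not overlap. Without SAH-BCL9B 2 it was -0.34 (adjusted p = 0.0801). It passed with the filter on low values (0.0349), a further quantile normalization (0.0374), a variance trend (0.014), array weights (0.0349) and with SAH-BCL9B 2 and vehicle 3 left out (0.0471), and its adjusted p reached 0.208 over the 16 alternatives.

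RAD54L, the relative of RAD54B that also drives strand exchange, had 9.47, 9.59 and 9.42 in SAH-BCL9B arrays, against 9.60, 9.88 and 9.80 in vehicle arrays. The highest SAH-BCL9B array lay just below the lowest vehicle array, and the value of -0.27 ± 0.10 did not pass (limma adjusted p = 0.157). RAD51C, XRCC2 and XRCC3, which act on single-stranded DNA in recombination, had values of -0.12, -0.26 and -0.16 (adjusted p = 0.407, 0.579 and 0.521). XRCC2 rested on 1 array, SAH-BCL9B 2, at 6.83, where the other SAH-BCL9B arrays had 7.71 and 7.34 and the vehicle arrays 7.73, 7.31 and 7.61. Its value without SAH-BCL9B 2 was -0.03. XRCC3 means of 6.46 in SAH-BCL9B and 6.63 in vehicle arrays stood near the arrays' medians, so its signal over background is uncertain.

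In the group of end resection and junction dissolution, 0 of 2 measured members passed the test in limma (1 at an unadjusted p under 0.05). BLM, the helicase that untangles recombined strands, had 8.99, 9.13 and 9.05 in SAH-BCL9B arrays, against 9.23, 9.46 and 9.35 in vehicle arrays. The groups did not overlap, and the value was -0.29 ± 0.09 (SE, adjusted p = 0.0964). EXO1, an exonuclease of both resection and mismatch repair, had 9.03, 9.24 and 9.07 in SAH-BCL9B arrays, against 9.41, 9.38 and 9.12 in vehicle arrays, and a value of -0.19 ± 0.11 (adjusted p = 0.369). Vehicle 3 overlapped the SAH-BCL9B arrays in EXO1.

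The Fanconi genes held the remaining 2 lowered members. FANCI, the partner of FANCD2 in the complex that receives ubiquitin, had 10.95, 11.04 and 11.20 in SAH-BCL9B arrays, against 11.60, 11.71 and 11.65 in vehicle arrays. The gap between the groups was wider than the range within either group. The change was -0.59 ± 0.09 (SE; 1.51-fold lower, limma adjusted p = 0.00995), the lowest adjusted p of the 27 members. A further FANCI probe set gave -0.60 ± 0.09 and passed by itself (adjusted p = 0.0171), and another, with means of 7.72 in SAH-BCL9B and 7.69 in vehicle arrays, gave 0.03 ± 0.08. The mean of all 3 gave -0.39 and passed (limma adjusted p = 0.0231).

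FANCF, an adaptor that holds the core ubiquitin ligase together, had 9.42, 9.35 and 9.31 in SAH-BCL9B arrays, against 9.83, 9.86 and 9.77 in vehicle arrays. Replicates were close and the groups did not overlap, with a change of -0.46 ± 0.07 (1.38-fold lower, limma adjusted p = 0.0127). Its other probe set gave -0.08 ± 0.08 (means of 9.26 in SAH-BCL9B and 9.33 in vehicle arrays, adjusted p = 0.737). The mean of both gave -0.27 and missed the threshold (adjusted p = 0.081). FANCF also missed it without SAH-BCL9B 3, vehicle 1 or vehicle 2 (adjusted p = 0.0525, 0.0713 and 0.0594).

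The other 6 measured core members did not pass. FANCG, which joins the complex through FANCA, had 9.51, 9.62 and 9.60 in SAH-BCL9B arrays, against 9.98, 9.90 and 9.74 in vehicle arrays, with no overlap and a value of -0.29 ± 0.09 (limma adjusted p = 0.0923). FANCM, the translocase that anchors the complex on DNA, had -0.28 ± 0.12, and FANCC -0.26 ± 0.11 (adjusted p = 0.243 and 0.222). The value of FANCM was -0.16 without SAH-BCL9B 2, -0.13 with the ACTB difference as a covariate and -0.09 as the mean of its probe sets. In FANCC the SAH-BCL9B arrays were spread, with 8.96, 9.26 and 8.87, and SAH-BCL9B 2 lay among the vehicle arrays of 9.29, 9.25 and 9.31. Without SAH-BCL9B 2 it was -0.37 and passed (adjusted p = 0.0344). FANCL, the ubiquitin ligase subunit itself, had -0.17, and FANCE, which contacts FANCD2, -0.13 (adjusted p = 0.285 and 0.458). Without vehicle 2, FANCE had -0.06. FANCB, another core subunit, had 8.14, 7.98 and 8.34 in SAH-BCL9B arrays, against 8.17, 8.28 and 7.69 in vehicle arrays. Vehicle 3 was the lowest of the 6, and the value of 0.11 (interval -0.27 to 0.48) became -0.07 without it.

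**Figure D3:**
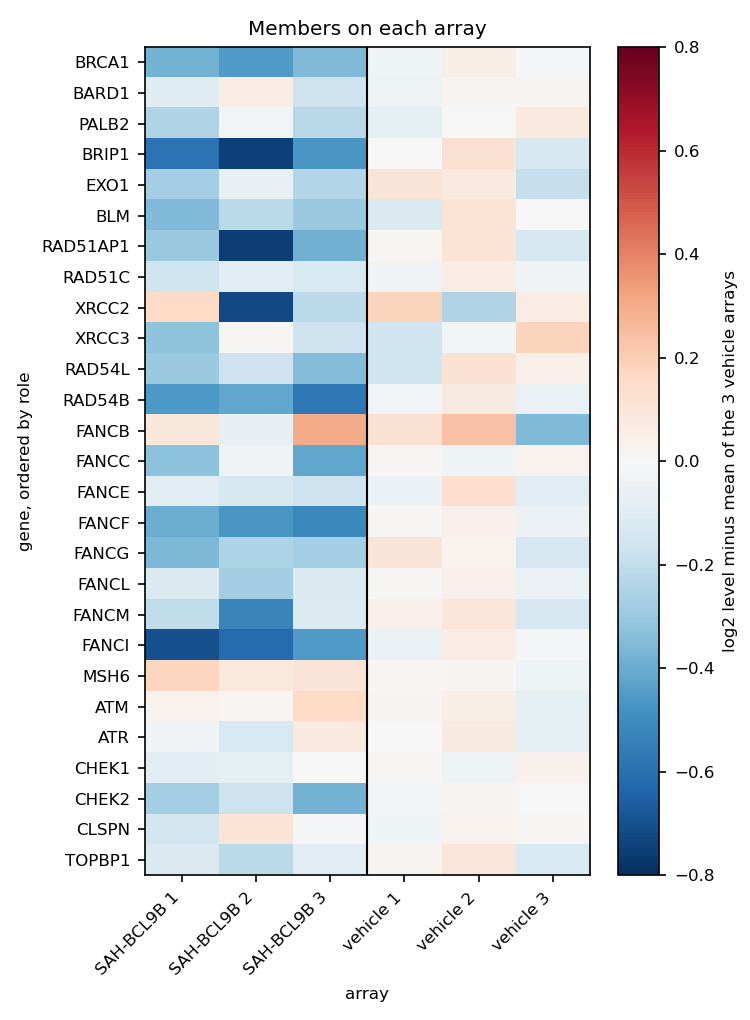
Each cell is a gene's log2 level on an array minus the mean of its 3 vehicle arrays (blue lower, red higher), for the 27 measured genes in order of role. SAH-BCL9B 2 holds the lowest values of RAD51AP1, XRCC2 and FANCM, and FANCI, BRIP1, RAD54B, FANCF and BRCA1 are blue on all 3 SAH-BCL9B arrays.

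Mismatch repair was read by MSH6 and EXO1. MSH6, which acts in the finding of mismatched bases, had 9.92, 9.83 and 9.85 in SAH-BCL9B arrays, against 9.76, 9.77 and 9.71 in vehicle arrays. It was the member in which the SAH-BCL9B arrays lay above the vehicle arrays, by 0.12 (interval -0.05 to 0.29), and it did not pass (limma adjusted p = 0.412). Its transcript was thus well above the array medians in both groups, in a line whose MSH6 function is known to be lost. An expression level does not read the coding sequence. Of the other 3 MSH6 probe sets, 1 had means of 7.55 in SAH-BCL9B and 7.52 in vehicle arrays, and 2 had means of 4.53 to 4.63, below the array medians. Their changes ran from -0.02 to 0.10. Probe sets that name both PMS2 and PMS2CL changed by -0.08 ± 0.11 and -0.13 ± 0.08 (SE). They did not pass in the limma fit over every probe set that is not an array control (adjusted p = 0.837 and 0.567). Which of these transcripts they read cannot be told apart.

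Of the 6 measured checkpoint members, 0 passed limma's test (1 at an unadjusted p under 0.05). ATM and ATR, the kinases that sense broken ends and stalled forks, had values of 0.07 (95% interval -0.12 to 0.25) and -0.02 (-0.22 to 0.17). CHEK1, the kinase that ATR activates, had 10.60, 10.61 and 10.68 in SAH-BCL9B arrays, against 10.69, 10.64 and 10.71 in vehicle arrays, and a value of -0.05 (-0.22 to 0.11). The interval of FANCI was -0.80 to -0.39, and a difference between its change and those of ATM, ATR and CHEK1 was not tested. CHEK2, the kinase downstream of ATM, had 9.81, 9.92 and 9.71 in SAH-BCL9B arrays, against 10.06, 10.11 and 10.09 in vehicle arrays, with no overlap. Its value was -0.27 ± 0.08 (SE, adjusted p = 0.0928), and it passed under 4 of 16 alternatives (lowest adjusted p = 0.0337). TOPBP1, an activator of ATR, had -0.14 ± 0.09, and CLSPN, the claspin gene that links ATR to CHEK1, had -0.01 ± 0.09 (adjusted p = 0.416 and 0.959). Probe sets that name both ATRIP and TREX1 changed by 0.20 ± 0.10, 0.05 ± 0.11 and 0.002 ± 0.09. None passed in the limma fit over every probe set that is not an array control (adjusted p = 0.400, 0.911 and 0.996).

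Several members were read by more than 1 probe set. Of 59 probe sets that name 1 member, 42 had a negative and 17 a positive change, and the share over all probe sets was not taken. Of the 14 members with several, 5 (BRCA1, BRIP1, BARD1, FANCF and CHEK1) had all of them negative, and 9 had both signs. In 7 of these 9 the probe sets lay 0.2 or more apart: ATM, ATR, CLSPN, FANCB, FANCC, FANCI and FANCM. ATR had a probe set at -0.48 ± 0.14 whose means of 5.98 in SAH-BCL9B and 6.47 in vehicle arrays were below the array medians, and 2 others at -0.02 and 0.03. CHEK1 had values of -0.33 ± 0.09 and -0.28 ± 0.10 in 2 probe sets and -0.05 and -0.02 in its 2 others, and none passed (lowest limma adjusted p = 0.111, every probe set tested by itself).

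**Figure D4:**
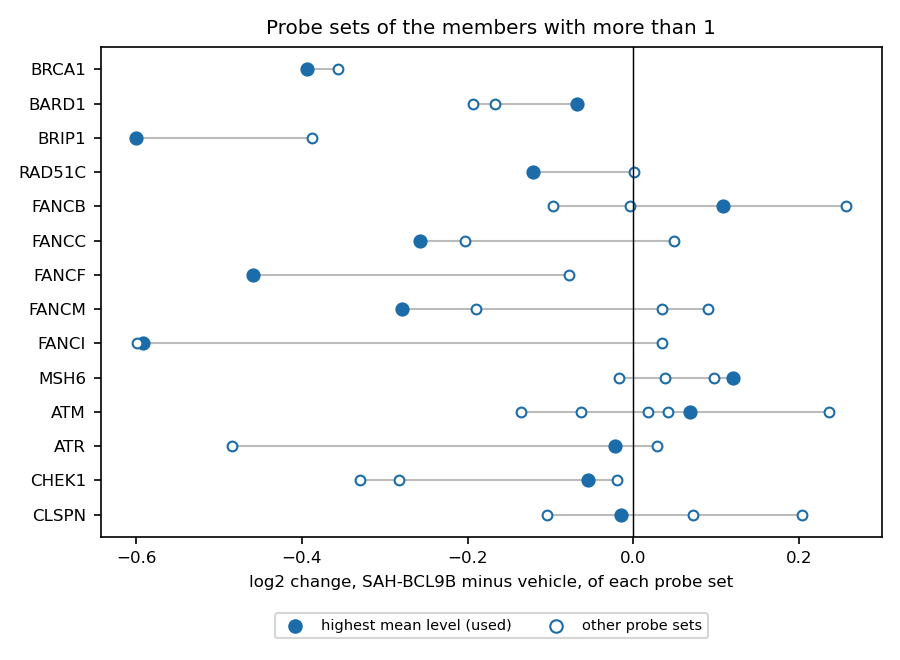
Each row is 1 of the 14 members with more than 1 probe set, and each point is the log2 change (SAH-BCL9B minus vehicle) of a probe set, filled for the one with the highest mean level. FANCI has 2 points near -0.60 and 1 at 0.03, and FANCF has -0.46 and -0.08.

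The promoters of the lowered members are shown because genes of this kind are known to be driven by E2F, CHR and CCAAT elements in dividing cells. Windows run from 250 bases before to 50 after a gene start in RefSeq (GRCh38.p14), and were found for 31 of the 33 genes, 45 windows in all. FANCI and RAD54B had none. Both strands were searched. The E2F core was taken as TTCCCGC, as its form with the middle letters changed TTCGCGC, and in the same way as the form TTGCCGC or the form TTGGCGC. The CHR element was taken as TTTGAA or as the variant TTCGAA. The CCAAT box, which reads ATTGG on the other strand, can overlap the last form of the E2F core. Capitals mark these matches in 3 windows, all on the minus strand and read along the gene: chr17:43125315-43125614 for BRCA1, chr17:61863479-61863778 for BRIP1 and chr11:22625774-22626073 for FANCF.
BRCA1: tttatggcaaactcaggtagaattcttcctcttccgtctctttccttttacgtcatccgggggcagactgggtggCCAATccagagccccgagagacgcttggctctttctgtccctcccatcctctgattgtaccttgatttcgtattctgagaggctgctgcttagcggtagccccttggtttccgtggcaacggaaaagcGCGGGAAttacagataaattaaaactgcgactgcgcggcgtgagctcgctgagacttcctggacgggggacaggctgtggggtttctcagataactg
BRIP1: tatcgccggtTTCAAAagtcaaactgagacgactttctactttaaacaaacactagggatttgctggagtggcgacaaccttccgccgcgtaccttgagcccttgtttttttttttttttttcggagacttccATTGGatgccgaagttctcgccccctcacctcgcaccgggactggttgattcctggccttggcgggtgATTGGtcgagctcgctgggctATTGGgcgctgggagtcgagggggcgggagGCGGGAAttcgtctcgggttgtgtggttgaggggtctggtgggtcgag
FANCF: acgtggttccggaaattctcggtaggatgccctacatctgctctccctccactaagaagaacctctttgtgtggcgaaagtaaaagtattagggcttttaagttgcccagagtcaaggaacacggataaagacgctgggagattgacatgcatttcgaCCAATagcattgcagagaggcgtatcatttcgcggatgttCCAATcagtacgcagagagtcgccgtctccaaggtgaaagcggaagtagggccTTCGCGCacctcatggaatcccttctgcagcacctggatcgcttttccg
Each of the 3 windows holds 1 match of the E2F core. It begins 47 bases before the start in BRCA1, and within 2 bases after it in BRIP1 and FANCF. BRIP1 has 3 CCAAT boxes and 1 CHR match, FANCF 2 CCAAT boxes and BRCA1 1. A further BRCA1 window, chr17:43170278-43170577, held none of them and is not printed.

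Over all 45 windows of members, 26 held an E2F core, where 13% of all 35116 windows searched did. Of the 31 genes, 20 had it in at least 1 window, and a share per gene was not taken over all genes. CCAAT was in 23 windows, against 34.6% of all windows, and a CHR match in 3, against 16.4%. Windows of a gene overlap each other, and the median GC content was 64.3% in the members' windows and 58.7% in all. The E2F core was present in genes that did not pass as well, such as MSH6, BARD1, TOPBP1 and BLM. A match describes the letters and is not a measured binding site.

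Among other genes of the same pathways, more fell than rose. Of 68 measured genes in lists of other recombination, Fanconi, mismatch repair and checkpoint genes, 9 fell (13.2%) and 3 rose (4.41%). Over all genes, 3.43% fell and 3.49% rose. At an unadjusted p under 0.05 in limma, 23 of the 68 were lower and 10 higher. Of all genes, 9.22% were lower and 12.2% higher at that p. The median change of the 68 was -0.11. In recombination 3 of 24 fell and 1 rose, with a median change of -0.18. RAD51B, which acts in a complex with RAD51C, changed by -0.67 ± 0.11, MND1, a meiotic strand exchange factor, by -0.56 ± 0.09, and NBN, of the complex that senses broken ends, by -0.51 ± 0.08 (SE, limma adjusted p = 0.014, 0.0117 and 0.0134). SWI5, an accessory factor of recombination, rose by 0.44 ± 0.09 (adjusted p = 0.0281). In the other Fanconi list USP1, the enzyme that removes ubiquitin from FANCD2 and FANCI, changed by -0.34 ± 0.07 (adjusted p = 0.0277), and the remaining 10 of 11 did not pass. The change was positive in 6 of the 11 and negative in 5, with a median of 0.11. At an unadjusted p under 0.05 in limma, 3 of them were lower and 2 higher.

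In the list of other mismatch repair genes 3 of 13 fell and 0 rose. The change was negative in 12 of the 13, with a median of -0.16. The 3 that fell were the clamp loader genes RFC3 and RFC4 (-0.44 ± 0.08 and -0.33 ± 0.07) and the polymerase gene POLD1 (-0.33 ± 0.08, SE). Their limma adjusted p was 0.0178, 0.0421 and 0.0463. In the checkpoint list 2 of 20 fell and 2 rose. CDC25C, a phosphatase that starts mitosis, changed by -0.65 ± 0.08, and TIMELESS, of the fork protection complex, by -0.43 ± 0.08 (adjusted p = 0.00507 and 0.0174). HUS1, part of the ring clamp that activates ATR, rose by 0.39 ± 0.08, and RNF168, a ubiquitin ligase at broken ends, by 0.32 ± 0.07 (adjusted p = 0.0305 and 0.0359).

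Cell cycle genes moved beside the members. Of 22 measured G1/S and replication genes, 7 fell and 1 rose (median change -0.16), and of 25 G2 and mitosis genes 14 fell and 0 rose (median -0.42, with 17 lower and 0 higher at an unadjusted p under 0.05). In the G1/S list the largest called changes were PRIM1 -0.85, E2F2 -0.69, CDC45 -0.51 and MCM7 -0.44 (limma adjusted p = 0.00117, 0.00786, 0.0322 and 0.0134). CCNE1 was the gene that rose, by 0.42 (adjusted p = 0.0194). In the G2 list they were CENPF -0.70, HMMR -0.68, MKI67 -0.64 and CENPE -0.62 (adjusted p = 0.00309, 0.00587, 0.0240 and 0.00588). The median deviation of the 27 members from their mean over 6 arrays was -0.14, -0.07 and -0.13 on SAH-BCL9B arrays 1, 2 and 3, against 0.09, 0.17 and 0.06 on vehicle arrays 1, 2 and 3. For G2 and mitosis genes it was -0.26, -0.13 and -0.20 on SAH-BCL9B arrays, against 0.20, 0.21 and 0.16 on vehicle arrays. SAH-BCL9B 2 had the smallest shift of the 3 SAH-BCL9B arrays in both lists. The part of the cell cycle genes in the members' change was not tested, and in bulk samples fewer cells of a phase and less RNA per cell cannot be told apart.

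**Figure D5:**
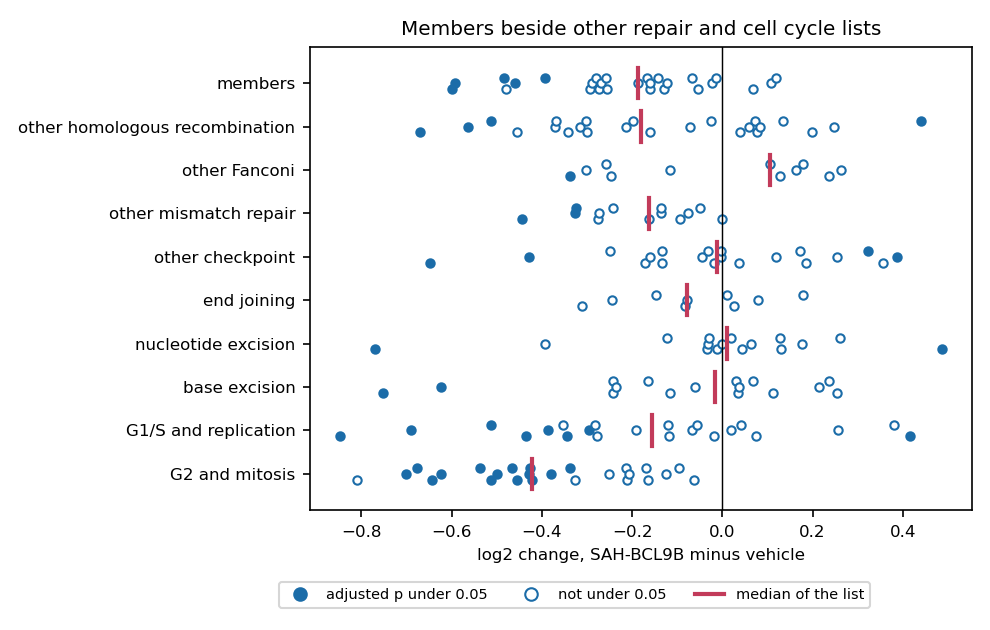
Each point is the log2 change (SAH-BCL9B minus vehicle) of a gene, filled for an adjusted p under 0.05, in rows for the members, other repair and checkpoint lists and cell cycle lists, with a bar at each median. The members' median of -0.19 lies near those of the other homologous recombination (-0.18), other mismatch repair (-0.16) and G1/S and replication lists (-0.16). The G2 and mitosis list has -0.42, the other checkpoint list -0.01 and the other Fanconi list 0.11.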

How the data were processed

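Expression was measured on 6 arrays, 3 per group, grouped by their titles. The authors deposited log2 values of 54675 probe sets, made with RMA and affy per the submitters' processing notes; their versions were not given in the sources used here. This method equalises the arrays' distributions, which hides a shift common to most transcripts, and it shrinks changes of dim probe sets. Signal over background is unknown, and the number of arrays limits the precision.

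Probe sets were named from GEO's platform annotation, with Entrez IDs checked against RefSeq; 41091 named 1 gene, 1801 several and 11721 none here. Each of 19775 genes was represented by its probe set of highest mean over the 6 arrays. Groups were compared in R 4.3.3 by limma 3.58.1 (a linear model with eBayes, no covariates, Benjamini-Hochberg over all genes, threshold 0.05); the R package data.table (version 1.17.8), Python 3.11.15 and matplotlib 3.10.9 were also used. SE and intervals are limma's moderated ones, and SD is over 3 arrays. The procedure was tested on simulated data.

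The members, lists, alternatives and motif letters were chosen with earlier results of these data known. Genes named were all members past the threshold, MSH6 and PMS2, the 3 largest changes per role and members with discordant probe sets. The highest and lowest levels were also named (a rule for naming, which ranks no amounts), and up to 4 called genes of each other list. The remaining members and CCNE1, the G1/S gene that rose, were added for completeness. Alternatives were a replicate block, a minimum level, the mean of a gene's probe sets or each by itself, centring on medians, a further quantile normalization, a robust variance trend, array weights, the ACTB covariate and arrays left out.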

Additional observations from a re-analysis of the deposited data

How the results depend on the processing

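The number of members that fell, 5 in the reported fit, was 0 with the replicate number as a block, 3 with the mean of all probe sets, and 9 each with the filter on low values, a variance trend and robust fit, and array weights; with 1 array left out it ran from 1 to 6. All genes called, 1370 in the reported fit, came to 296 with the block, 2271 with the filter, 2456 with the variance trend and 2172 with array weights, and ran from 316 to 1426 with 1 array left out. No member rose under any of the 16 alternatives in limma, and the members' median stayed between -0.23 and -0.17. The labels name no pairing, so the numbers were not taken as pairs. Same-numbered arrays had deviations from their group means correlated at 0.24, -0.20 and -0.32. The highest such correlation between the groups was 0.42, for SAH-BCL9B 2 and vehicle 3. Centring on groups of 3 arrays constrains these values, so they cannot decide whether the arrays were paired. Under the block FANCI had the lowest adjusted p of the 5 (0.0527) and BRCA1 the highest (0.0898). The sign turned in ATR with the ACTB covariate (0.041), and ran from -0.073 to 0.027 with 1 array left out; in CLSPN with the mean of all probe sets (0.039), and from -0.077 to 0.050 with 1 array left out; in XRCC2 with SAH-BCL9B 2 and vehicle 3 left out (0.0051); and in FANCB without vehicle 3, from -0.069 to 0.22 with 1 array left out. None of these passed in any fit. With 1 array left out, the value moved by over 1.5 times in 10 members, BARD1, XRCC2, XRCC3, FANCB, FANCE, FANCM, ATM, ATR, CLSPN and TOPBP1, of which 0 had passed in limma with all arrays. The cause of these shifts was not tested. Among all values of single members under the alternatives, 384 kept direction and side of the threshold, 23 lost it, 17 gained it and 7 turned sign. XRCC3 was left out by the filter on low values. At 3 arrays a group, a missed threshold does not show that a gene was unchanged.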

Other observations

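Other repair pathways were measured as well. Of 9 measured end joining genes 0 passed limma's test (2 lower and 0 higher at an unadjusted p under 0.05), with a median change of -0.08. Of 16 nucleotide excision genes, DDB2, which finds ultraviolet lesions in chromatin, fell to 8.14 ± 0.06 in SAH-BCL9B arrays, against 8.91 ± 0.08 in vehicle arrays (SD, n = 3 each; log2 change -0.77, limma adjusted p = 0.00296). GTF2H5, a small subunit of the repair factor TFIIH, rose by 0.49 ± 0.07 (SE, adjusted p = 0.0103). Of 16 base excision genes 2 fell: NEIL3, a glycosylase known to be expressed in S phase that also unhooks linked strands, by 0.75 ± 0.10 on the log2 scale, and the adenine glycosylase gene MUTYH by 0.62 ± 0.10 (SE, adjusted p = 0.00578 and 0.0117).

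Of 12 measured genes known to be induced by DNA damage, 1 fell and 1 rose. The change was positive in 9 of them, with a median of 0.15. Over all genes tested it was positive in 10893 of 19775, with a median of 0.02. At an unadjusted p under 0.05 in limma, 1 of the 12 was lower and 4 were higher, where 9.22% of all genes were lower and 12.2% higher. Whether these values reflect DNA damage was not tested. SESN2, a stress gene that answers to both p53 and ATF4, had a mean of 9.09 ± 0.11 in SAH-BCL9B and 9.98 ± 0.05 in vehicle arrays (SD, n = 3 each; limma adjusted p = 0.00221). PLK2, a polo-like kinase gene, had 11.12 ± 0.17 in SAH-BCL9B and 10.33 ± 0.13 in vehicle arrays (adjusted p = 0.00833).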
